A study of Mus musculus with 101 samples.

Results

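The genes of mouse chromosome 14 were followed through 98 mammary tumours to describe how much of the chromosome was lost, which stretch was lost most often and in which tumours. The members were the 1303 gene symbols of the deposited segment table that the GRCm38 RefSeq annotation places on chromosome 14, out of 43513 symbols in the table, of which 32691 could be placed. They came from 1309 symbols after 6 genes (Rb1, Lats2, Bcl2l2, Parp2, Parg and Shld2) were left out, and they ran from 7.75 to 124.68 Mb. Of the members, 638 were protein-coding, 292 were pseudogenes, 192 were long noncoding RNAs and 29 were miRNA genes. Another 88 were T-cell receptor gene segments, and 36 were olfactory receptor genes.

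The tumours were analysed by low-coverage sequencing of genomic DNA (CNV-seq), in which reads are counted along the genome and the count is read as copy number. KB1(L1363P)P tumours (n = 24) carried the Brca1 p.L1363P variant, which lies in the coiled-coil domain and disturbs the contact of BRCA1 with PALB2. By histology, 12 of them were sarcomatoid, 9 were carcinosarcomas and 3 were adenocarcinomas. KB1P tumours (n = 31) comprised 1 sarcomatoid tumour, 1 carcinosarcoma and 29 adenocarcinomas, and all 25 KB2P tumours were adenocarcinomas. KP tumours (n = 18) comprised 10 sarcomatoid tumours, 2 carcinosarcomas and 6 adenocarcinomas. In this family of models, as background, a Cre recombinase driven by the keratin 14 promoter deletes floxed Trp53 in epithelial cells, together with Brca1 in KB1P and Brca2 in KB2P. Trp53 is thus targeted in the KP tumours too, and KP is not a wild type. The labels give only the short model names, so the alleles of single animals are not described here. The 3 spleens, titled L1363P, KB1P and KP, are set beside the tumours as DNA of nontumour tissue from these models, not from wild-type animals. Whether the ratios were taken against them is not given. Some tumours share a sample number in their titles and may come from 1 animal, so values vary between tumours and not always between animals. KB1P replicate 8 goes against its labels in part, with a title that names KB1P and a description that names L1363P. It was kept in KB1P, had 44.6% of the members lost, and the frequency, mean share, peak and gradient of KB1P are also given without it. KB2P replicates 10 and 12 were nearly alike over the whole genome (r = 0.986 across genes). The frequency, mean share, peak and mean gradient of KB2P are also given without replicate 12, while other KB2P values count both as tumours.

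BRCA1 and BRCA2 act in homologous recombination, the repair of DNA double-strand breaks from an intact copy, and PALB2 joins them. Tumours without this repair are known for many gains and losses of chromosome arms. A loss takes away 1 allele of many neighbouring genes at once, so a chromosome's loss does not by itself point to the gene that matters. Mouse chromosomes are acrocentric: the centromere lies at the low coordinates, called proximal here, and the telomere at the high ones, called distal.

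A member was counted as lost in a tumour where the authors' whole-number copy call was below 2, and as gained where it was above 2. In 99.9947% of the values, the call was the segmented log2 ratio turned into copies and rounded. The highest segment value called lost was -0.42. In a diploid background that value is reached when about 50% of the cells have lost 1 copy. The DNA came from bulk tumour, so fewer cells with a loss and a shallower loss in each cell could not be told apart. Chromosome 14 was selected on its loss calls and segment values in these same tumours. The frequencies and levels by genotype and histology are therefore descriptions, and the frequency and mean share of loss were not tested. The tests given further on use the same calls and values, so they describe these tumours and are no independent evidence.

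Among the members with a sequence to show, the miRNA genes mark positions along the chromosome. Of 29 miRNA genes, 24 had a mature sequence in the RefSeq table of GRCm38.p6, and they were lost in 8 to 34 tumours with a median of 29. The 8 below are shown because they stand for the stretch lost least often, the middle and the stretches lost most often, and they were chosen after their values were seen. Capitals mark the seed, bases 2 to 8, which pairs with target mRNAs.
mmu-miR-6946-5p: aAAAGGGAgagaaagaaaugc
mmu-miR-208a-3p: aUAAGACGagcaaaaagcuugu
mmu-miR-208b-3p: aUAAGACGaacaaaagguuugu
mmu-miR-208a-5p: gAGCUUUUggcccggguuauac
mmu-miR-208b-5p: aAGCUUUUugcucgcguuaugu
mmu-miR-687: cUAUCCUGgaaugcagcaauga
mmu-miR-759: gCAGAGUGcaaacaauuuugac
mmu-miR-6390: gAAUUGAUcaggauguaacca

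The sequence of mmu-miR-6946-5p lies at chr14:20690640-20690660 on the plus strand, in the stretch lost least often, and its gene was lost in 8 tumours. The miR-208 genes, known from heart muscle where they lie within myosin heavy chain genes, were the only members whose printed sequences shared a seed. Their 3p arms lie at chr14:54949072-54949093 and chr14:54975710-54975731, and their 5p arms at chr14:54949107-54949128 and chr14:54975745-54975766, all on the minus strand. Both genes were lost together in 25 tumours. The sequence of mmu-miR-687 lies at chr14:73206808-73206829 on the minus strand, that of mmu-miR-759 at chr14:79738460-79738481 on the plus strand, and that of mmu-miR-6390 at chr14:105623710-105623730 on the minus strand. Mir687 was lost in 34 tumours, of which 3 were KB1(L1363P)P, 15 KB1P, 13 KB2P and 3 KP. Mir759 was also lost in 34 tumours (3 KB1(L1363P)P, 16 KB1P, 12 KB2P and 3 KP). Mir6390 was lost in 33 tumours (3 KB1(L1363P)P, 14 KB1P, 14 KB2P and 2 KP).

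Chromosome 14 was lost, in part or whole, in 39 of 98 tumours, and most of these tumours kept a proximal stretch. At least 1% of the members were lost in 3 of 24 KB1(L1363P)P tumours (12.5%), 18 of 31 KB1P tumours (58.1%), 15 of 25 KB2P tumours (60%) and 3 of 18 KP tumours (16.7%). Loss was whole, with at least 90% of the members lost, in 7 tumours and partial in 32. The whole losses were 0 KB1(L1363P)P, 4 KB1P, 2 KB2P and 1 KP tumours. None of the 3 spleens had a lost member, and their segment values on the chromosome stayed within 0.0027 of 0.

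The mean share of members lost was 8.46% ± 24.0 in KB1(L1363P)P tumours (SD, n = 24) and 35.4% ± 37.7 in KB1P tumours (SD, n = 31). It was 34.1% ± 35.3 in KB2P tumours (SD, n = 25) and 14.2% ± 33.0 in KP tumours (SD, n = 18). Without replicate 8, KB1P had loss in 17 of 30 tumours and a mean share lost of 35.1% ± 38.3 (SD, n = 30). With loss counted at a segment value of -0.2 or lower, the mean share was 22.2% in KB1(L1363P)P, 37.3% in KB1P, 49.4% in KB2P and 15.2% in KP, so the order of KB1(L1363P)P and KP and of KB1P and KB2P turned. At -0.5 or lower it was 8.46% in KB1(L1363P)P, 20.9% in KB1P, 29.2% in KB2P and 4.16% in KP. By the copy calls, the median tumour lost 0% in KB1(L1363P)P, 29.7% in KB1P, 39.4% in KB2P and 0% in KP. Every genotype thus reached from tumours with no loss to tumours with at least 89.7% of the members lost, and the groups overlapped over that whole range.

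**Figure D1:**
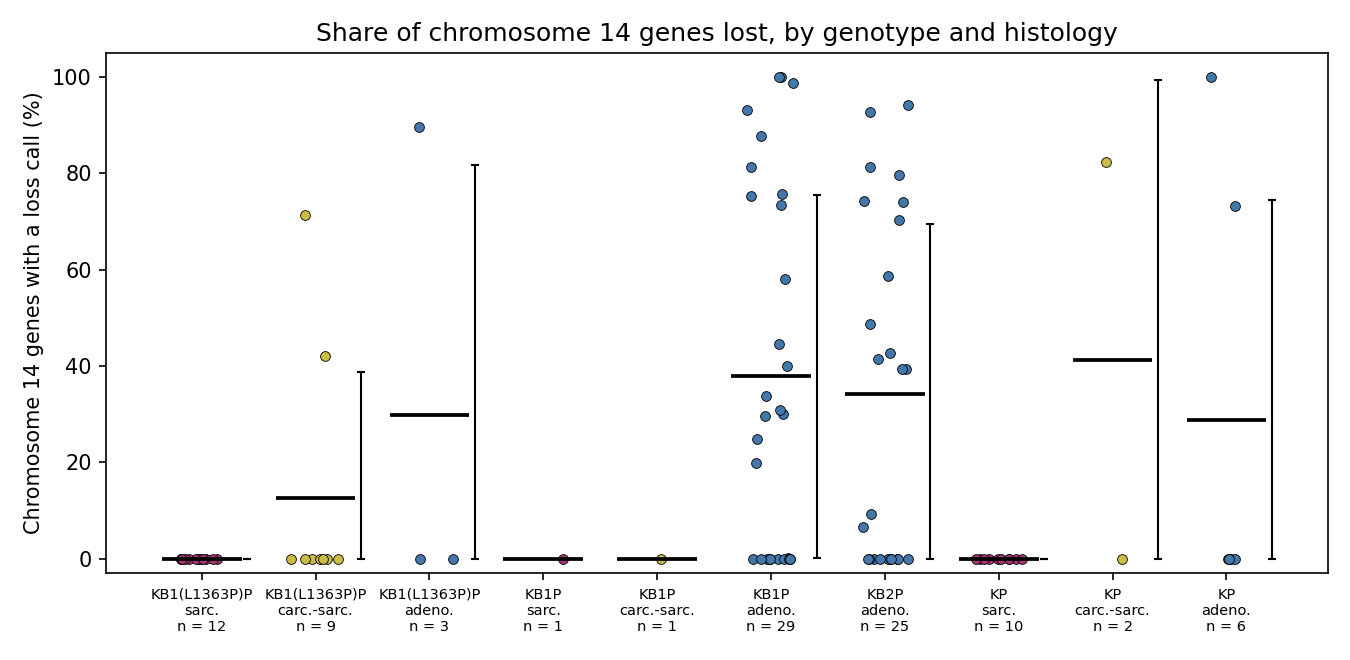
Percent of the 1303 chromosome 14 members with a copy call below 2 in each tumour, by genotype and histology. Points are tumours. The bars show the mean and SD of the tumours of each histology within a genotype, clipped at 0, and are not means of whole genotypes. All 23 sarcomatoid tumours sit at 0, while KB1P and KB2P tumours spread from 0 up to 100% and 94.2%.

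Loss also varied with histology. None of the 23 sarcomatoid tumours had a lost member (12 KB1(L1363P)P, 1 KB1P and 10 KP), against 3 of 12 carcinosarcomas (25%) and 36 of 63 adenocarcinomas (57.1%). The mean share lost was 0% in sarcomatoid tumours, 16.3% ± 30.8 in carcinosarcomas (SD, n = 12) and 35.1% ± 37.3 in adenocarcinomas (SD, n = 63). Sarcomatoid tumours were also flat along the chromosome: 22 of 23 showed no step between neighbouring segments. Their mean segment value was -0.04 ± 0.11 (SD, n = 23), with a range from -0.25 to 0.22. Within KB1(L1363P)P, the share lost was 0% in sarcomatoid tumours (n = 12), 12.6% ± 26.1 in carcinosarcomas (SD, n = 9) and 89.7%, 0% and 0% in the 3 adenocarcinomas. Within KP it was 0% in sarcomatoid tumours (n = 10), 82.4% and 0% in the 2 carcinosarcomas and 28.9% ± 45.5 in adenocarcinomas (SD, n = 6). Among adenocarcinomas alone, which every genotype has, loss was seen in 1 of 3 KB1(L1363P)P, 18 of 29 KB1P, 15 of 25 KB2P and 2 of 6 KP tumours.

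**Figure D2:**
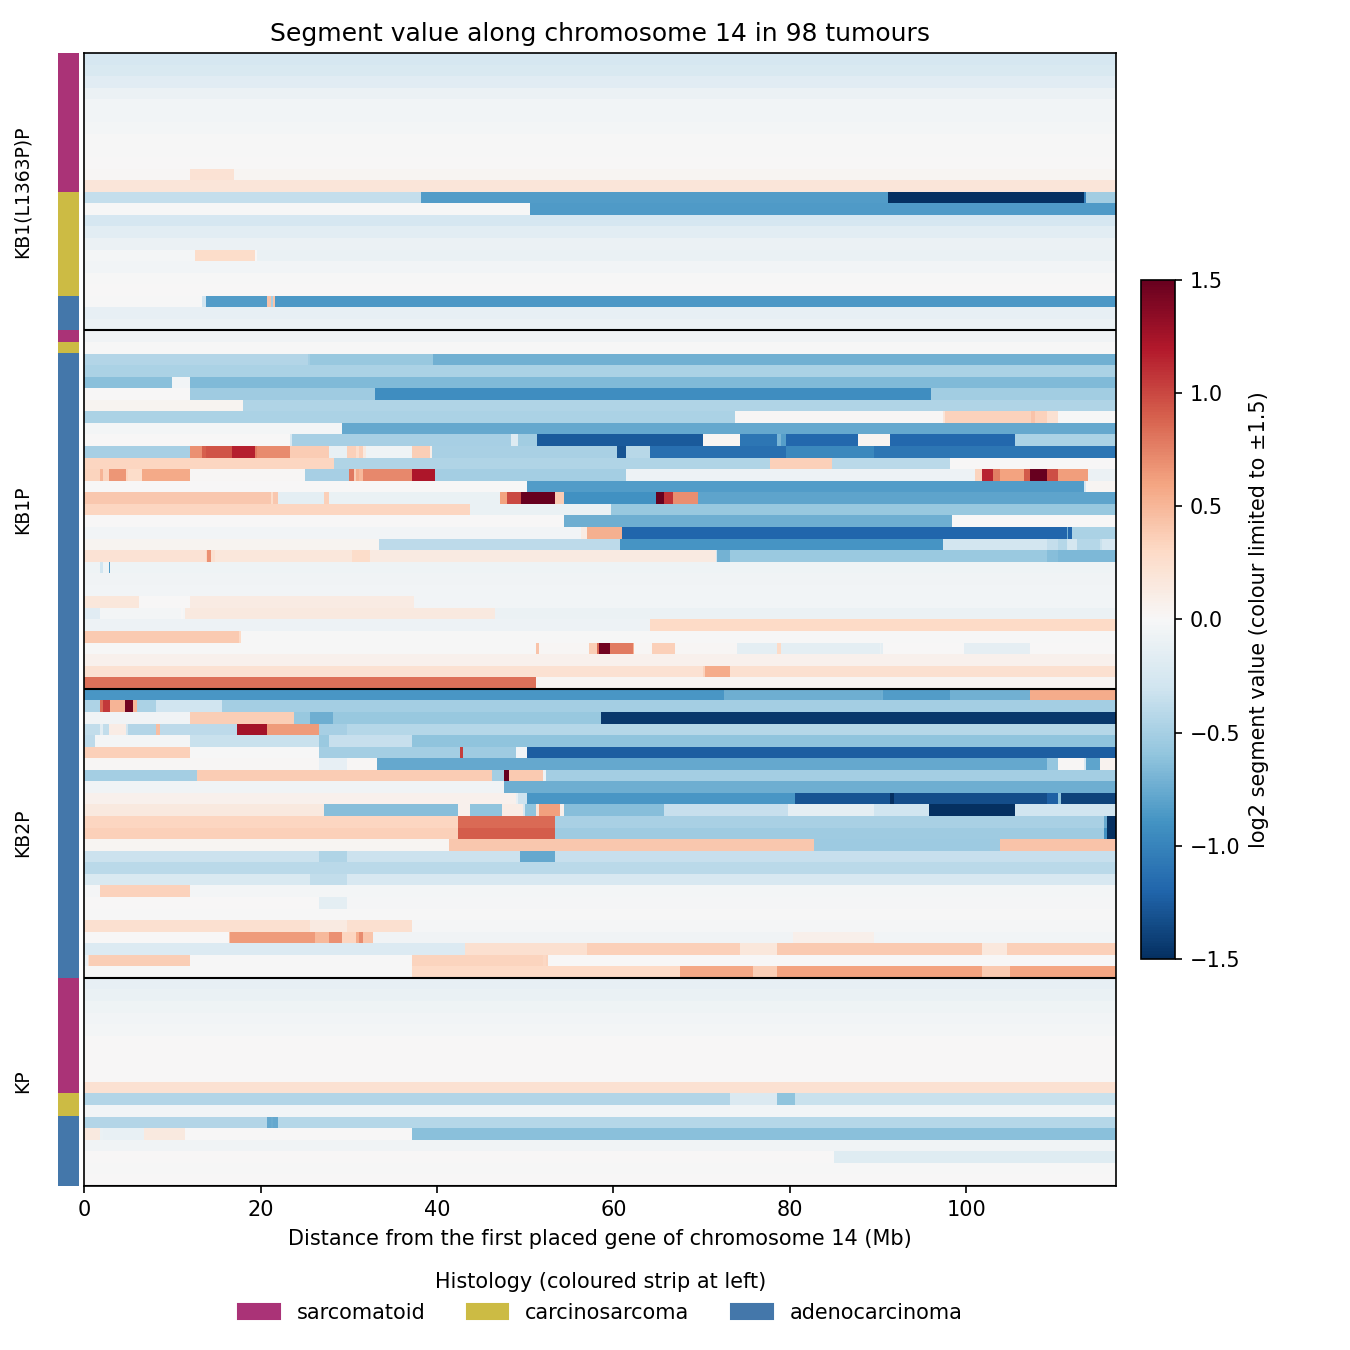
Segmented log2 ratio of the chromosome 14 members, 1 row per tumour, against distance in Mb from the first placed gene, with genotypes from top to bottom as KB1(L1363P)P, KB1P, KB2P and KP and a histology strip at the left. Blue marks low and red high values. Within a genotype and histology, rows are sorted by the share of members lost, and the low values lie mostly to the right, on the distal side.

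The share of epithelial cells in the labels and the library series moved with these frequencies. The sample titles hold the series number for series 5289 and 5490 only, and the other series numbers, 5750 included, do not appear in them. No series number was available for 11 KB1P tumours, of which 7 had loss. In series 5289, the only one with 3 genotypes, loss was seen in 1 of 20 KB1(L1363P)P tumours, 7 of 10 KB1P tumours and 0 of 3 KP tumours. By histology, the same series had loss in 0 of 13 sarcomatoid tumours, 0 of 8 carcinosarcomas and 8 of 12 adenocarcinomas. Series 5490 held 5 of the 6 KB1(L1363P)P and KP tumours with loss, among 9 tumours: 2 of its 4 KB1(L1363P)P and 3 of its 5 KP tumours. All 10 sarcomatoid KP tumours made up series 5750, so for them histology and series cannot be told apart. In series 5289, loss was seen in 0 of 16 tumours with under 75% epithelial cells and in 8 of 17 with 75% or more, a split chosen after the data were seen. The part of epithelial content and of library series in the frequencies was not tested. KB1P tumours titled KB1PM, a name the labels do not explain, had loss in 3 of 10 tumours, against 15 of 21 KB1P tumours without that title, or 14 of 20 when replicate 8 was left out too.

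The tumours near the limit of a loss call show how much the call depends on depth of loss. KB2P replicate 4, an adenocarcinoma, had a uniform segment value of -0.40 along the chromosome and no member called lost. KB1P replicate 18 was uniform at -0.47 and was called lost throughout. KB1(L1363P)P replicates 5 (carcinosarcoma), 6 and 9 (both sarcomatoid) were uniform at -0.25, -0.25 and -0.23, also without a call. On the other side of the limit, KB2P replicate 20 had 6.52% of the members lost and KB2P replicate 24 had 9.36%.

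Set beside the other autosomes, chromosome 14 was among those lost most. By mean share of genes lost it ranked 4 of 19 in KB1(L1363P)P, 3 of 19 in KB1P, 4 of 19 in KB2P and 2 of 19 in KP. Chromosome 12 ranked above it in all 4 genotypes.

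The loss was uneven along the chromosome and grew from the proximal to the distal side. From 5 to 25 Mb, each member was lost in 8 to 11 of the 98 tumours. The count was 10 to 19 from 25 to 35 Mb, 18 to 21 from 35 to 45 Mb and 21 to 25 from 45 to 55 Mb. It reached 33 to 36 from 65 to 75 Mb, stayed at 32 to 34 up to 105 Mb, and was 27 to 29 from 115 to 125 Mb. Gains ran the other way: members were gained in 9 to 12 tumours from 5 to 25 Mb and in 2 to 4 tumours from 65 to 95 Mb.

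**Figure D3:**
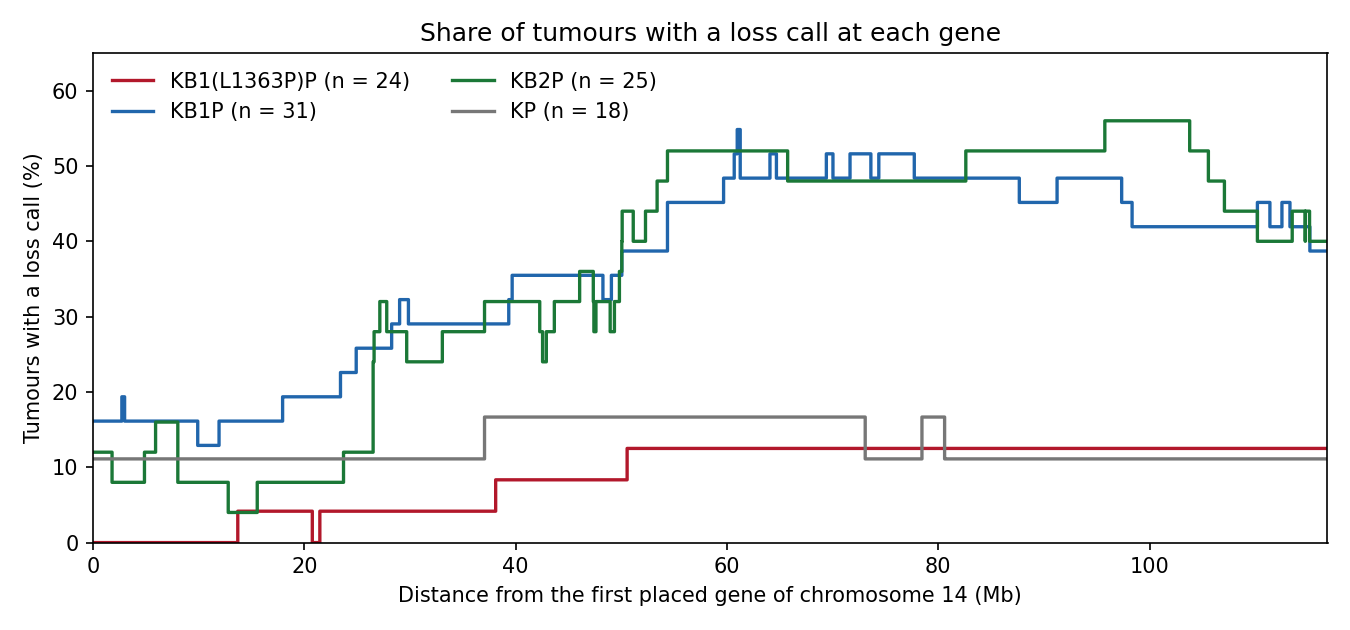
Percent of the tumours of each genotype in which a member was called lost, against distance in Mb from the first placed gene. The lines for KB1P and KB2P climb from 12.9% and 4% at their lowest to 54.8% and 56% at their highest, while those for KB1(L1363P)P and KP stay at or under 12.5% and 16.7%.

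Members of each role can be read along this gradient. Fhit, a putative suppressor at a fragile site near the proximal end, was lost in 9 tumours and gained in 12. Thrb, which encodes a thyroid hormone receptor, was lost in 8 tumours: 0 KB1(L1363P)P, 4 KB1P, 2 KB2P and 2 KP. Plau, the urokinase protease gene, was also lost in 8. Wnt5a, the gene of a noncanonical Wnt ligand, was lost in 10 tumours, none of them KB1(L1363P)P. Bap1, a deubiquitinase and tumour suppressor, was lost in 12 tumours and gained in 10.

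Segment values of Bap1 reached from -0.86 to 0.19 with a median of -0.07 in KB1(L1363P)P, and from -0.66 to 0.82 with a median of -0.01 in KB1P. They reached from -0.87 to 0.64 with a median of 0.00 in KB2P, and from -0.44 to 0.22 with a median of -0.02 in KP. The medians were near 0 in every genotype and the ranges overlapped, and Bap1 was called gained in 0 KB1(L1363P)P, 4 KB1P, 6 KB2P and 0 KP tumours.

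Bmpr1a, a receptor for bone morphogenetic proteins, was lost in 18 tumours, and Ajuba, an adaptor protein of cell junctions, in 25. Gzmb, the granzyme B gene of cytotoxic lymphocytes, was lost in 23 tumours and gained in 7. Distal to 62 Mb the counts were higher again: Rnaseh2b, a subunit of the RNase that removes ribonucleotides from DNA, Neil2, a DNA glycosylase, and Gata4, a zinc-finger transcription factor, were each lost in 33 tumours. Ctsb, the cathepsin B gene, and Blk, a kinase of B cells, were lost in 33 as well.

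The neighbours Tnfrsf10b, a death receptor for TRAIL, Rhobtb2, a candidate suppressor, and Stc1, a secreted glycoprotein, were lost in 34 tumours each, as was Dok2, an adaptor that dampens tyrosine kinase signalling. Segment values of Dok2 had a minimum, median and maximum of -0.86, -0.09 and 0.19 in KB1(L1363P)P and of -1.26, -0.41 and 0.23 in KB1P. They were -1.44, -0.42 and 0.40 in KB2P and -0.63, -0.03 and 0.22 in KP. The median KB1P and KB2P tumours lay at the limit of a loss call and the median KB1(L1363P)P and KP tumours near 0, with overlapping ranges. Further distal, Klf5, a zinc-finger factor of epithelial cells, Bora, an activator of Aurora A kinase, and Dis3, a subunit of the RNA exosome, were lost in 33 tumours. Ednrb, an endothelin receptor, and Scel, which encodes sciellin of the cornified envelope, were lost in 34, and Spry2, an antagonist of receptor tyrosine kinase signalling, in 33. Rb1, the retinoblastoma gene, which was not counted as a member, was lost in 34 tumours (3 KB1(L1363P)P, 15 KB1P, 13 KB2P and 3 KP), and its lowest segment value was -1.44.

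Gene groups followed their places on the chromosome. The lists were drawn up with earlier results of these data known, so their counts are descriptions. Of the tumour suppressor and growth-restraining genes, 20 of 22 were measured as members and were lost in 9 to 34 tumours with a median of 32.5, beside a median of 25 over all members. The DNA repair, chromosome and chromatin genes (16 of 18) were lost in 9 to 33 tumours with a median of 24, and the mitosis and growth-promoting genes (16 of 18) in 8 to 34 with a median of 26.5. The epithelial identity and differentiation genes (15 of 15) were lost in 8 to 34 tumours with a median of 29. The cell death, proteasome and immune genes (12 of 14) were lost in 23 to 33 tumours with a median of 29. The listed genes that are not members are not analysed here. Both growth-restraining and growth-promoting genes lay in the distal stretch: Klf5, Bora and Dis3 were lost in 33 tumours and Elf1, Egr3 and Bin3 in 34.

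The stretch lost most often differed little from its surroundings. Over all tumours the peak was 36 of 98 at 68.72 to 68.88 Mb, and it held only the pseudogenes Gm46476 and Gm47256. The count was 35 at Adam28 on its proximal side and 34 at Gm41192 and Stc1 on its distal side, so the peak stood out by 1 or 2 tumours. Just past its distal side KB1P replicate 29 had a segment value of -0.414, close to the limit of a call. In KB1P the peak was the same run, lost in 17 of 31 tumours. In KB2P it was the stretch from Scel to Gm9348, at 103.51 to 110.78 Mb with 47 members, lost in 14 of 25. Without replicate 12 the KB2P peak was the same stretch, lost in 13 of 24. The 3 KB1(L1363P)P tumours with loss shared all 547 members from Gm33321 at 58.30 Mb to the distal end. The 3 KP tumours with loss shared 710 members from 44.80 to 80.34 Mb and 15 members from 86.20 to 88.34 Mb. With loss counted at -0.2 or lower, they shared all 954 members from 44.80 Mb to the distal end, so the distal limit depends on the call.

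Without KB1P replicate 8, whose labels conflict, the peak over all tumours was 35 of 97 at 68.72 to 72.13 Mb, with 5 members, and that of KB1P was 16 of 30 at 68.72 to 84.76 Mb, with 30 members. Each held both pseudogenes. Without the KB1PM titles as well, the KB1P peak moved to 14 of 20 tumours at 82.12 to 84.76 Mb, with 7 members, none of them shared with the 68.72 Mb run. Of the 39 tumours with loss, 36 had lost the run at 68.72 Mb, and the exceptions were KB1P replicate 11 and KB2P replicates 20 and 24. KB2P replicate 20 had no call there, but its segment values were low throughout, with -0.3166 as the highest on the chromosome. By these calls, no member was lost in every tumour with loss.

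Few or no tumours of a genotype had lost the proximal stretches. In KB1(L1363P)P, 0 of 24 tumours had lost any of the 128 members from 7.75 to 21.45 Mb, up to Adk, the adenosine kinase gene, nor the 6 members from Wnt5a to Lrtm1. In KB1P the lowest count was 4 of 31, from Thrb to Gm8582 at 17.66 to 19.13 Mb. In KB2P it was 1 of 25, from 20.55 to 23.09 Mb.

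Whole losses were found at different depths. In KB1P they were replicates 3, 4, 10 and 18, with 93.2%, 100%, 98.8% and 100% of the members lost and mean segment values of -0.75, -0.64, -0.65 and -0.47. In KB2P they were replicates 14 and 23, with 94.2% and 92.7% lost and mean segment values of -0.78 and -0.47. The number of steps along the chromosome also varied between genotypes. The median was 0 in KB1(L1363P)P, where 19 of 24 tumours had no step, and 3 in KB1P, where 6 of 31 had none. It was 6 in KB2P, where 2 of 25 had none, and 0 in KP, where 14 of 18 had none. Of the tumours without a step, 11 of the 19 KB1(L1363P)P and 10 of the 14 KP tumours were sarcomatoid, so genotype and histology overlap here. Among adenocarcinomas alone the median was 0 in KB1(L1363P)P (n = 3), 3 in KB1P (n = 29), 6 in KB2P (n = 25) and 0.5 in KP (n = 6). KB1P replicate 8 had the most steps of the tumours with loss, at 26, and KB1P replicate 29 had 25.

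Single tumours differed in how the loss was laid out. Among the 39 tumours with loss there were 65 lost runs with a median length of 43.8 Mb. Loss was a single run in 23 tumours and several runs in 16. It took in the last member, at the distal end, in 27 tumours, the first member in 10, both in 7 and neither in 9. Of the 42 proximal edges of lost runs of at least 5 Mb, 12 lay between 55 and 65 Mb, the window with the most. That window held 204 of the members.

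A few edges fell at the same member in several tumours. The lost run began at Gm18813, at 34.26 Mb, in KB2P replicates 18, 20 and 22, and at Gm35419, at 62.12 Mb, in KB1P replicates 14 and 26 and KB2P replicate 21. It began at Gm17070, at 44.80 Mb, in KB2P replicate 22 and KP replicate 4, but a gap of 3.62 Mb without members lies before that gene, so those edges may be apart. Over all steps of the segment value, called or not, 388 fell on 243 of 1302 boundaries between neighbouring members, and 169 boundaries had a step in 1 tumour only. The boundary used most, between Gm8582 and Gm17030 at 19.13 to 19.68 Mb, had a step in 11 tumours: 1 KB1(L1363P)P, 5 KB1P, 5 KB2P and 0 KP. A step at Gm22469 to Gm23909, at 37.23 to 37.44 Mb, was seen in 7 tumours and always went up distally, by a median of 0.13 on the log2 scale. The step before Fhit was seen in 7 tumours and the step after it in 5. Fhit spans 9.55 to 11.16 Mb, and its value can average bins that differ.

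The KB1(L1363P)P and KP tumours with loss were few enough to describe one by one. KB1(L1363P)P replicate 19, an adenocarcinoma of series 5289, lost 89.7% of the members at a mean segment value of -0.77. KB1(L1363P)P replicate 22, a carcinosarcoma of series 5490, lost 42.0%, in 1 run from 58.30 Mb to the distal end. KB1(L1363P)P replicate 23, a carcinosarcoma of the same series, lost 71.5% and reached -1.54. KP replicate 4, an adenocarcinoma, lost 73.2%, from 44.80 Mb on. KP replicate 6, a carcinosarcoma, lost 82.4% and had no loss call over most of the distal end. Its values were lowered there too, with a distal mean of -0.38 and a highest value of -0.2163 on the chromosome. KP replicate 8, an adenocarcinoma, lost 100% at a mean segment value of -0.43, just past the limit of a call.

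Segment values were lower on the distal than on the proximal side of the chromosome in KB1P and KB2P tumours. The chromosome was split at 66.17 Mb, midway between the first and the last member, into 882 proximal and 421 distal members. The mean segment value was -0.12 ± 0.20 proximally and -0.18 ± 0.30 distally in KB1(L1363P)P (SD, n = 24), and -0.12 ± 0.30 and -0.33 ± 0.38 in KB1P (SD, n = 31). It was -0.12 ± 0.32 proximally and -0.39 ± 0.47 distally in KB2P (SD, n = 25), and -0.08 ± 0.17 and -0.10 ± 0.20 in KP (SD, n = 18). Within a tumour, the proximal minus distal difference was tested by a sign-flip permutation test, two-sided and adjusted over the 4 genotypes. The chromosome was chosen with its loss along its length already known, so the p-values are no independent evidence of the gradient.

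The difference was 0.21 ± 0.34 in KB1P (SD, n = 31; permutation p = 0.00178, adjusted 0.00712), with 19 tumours above 0, 6 below and the others at 0. Without replicate 8 it was 0.22 (SD 0.34, n = 30; permutation, adjusted p = 0.00396). It was 0.27 ± 0.43 in KB2P (SD, n = 25; permutation p = 0.00484, adjusted 0.00968), with 18 above 0 and 5 below. That test counts the nearly alike KB2P replicates 10 and 12 as 2 tumours, with differences of 1.06 and 0.96. Without replicate 12 the KB2P mean was 0.24 ± 0.42 (SD, n = 24). In KB1(L1363P)P the difference was 0.06 ± 0.17 (SD, n = 24; exact permutation p = 0.0625, adjusted 0.0833). Only 5 tumours there differed from 0, all upward, and 0.0625 is the smallest p that 5 tumours allow. In KP it was 0.02 ± 0.06 (SD, n = 18; exact permutation p = 0.5, adjusted 0.5), with 2 tumours above 0, 2 below and 0.125 as the smallest p possible. On unsegmented log2 ratios the difference passed the test in both: it was 0.0769 in KB1(L1363P)P (permutation, adjusted p = 8e-05) and 0.0277 in KP (permutation, adjusted p = 0.0119). These calls thus depend on the segmentation. In tumours without a step the unsegmented difference averaged 0.0246 in KB1(L1363P)P, with 17 of 19 above 0, and 0.0101 in KP, with 11 of 14 above 0. Whether the genotypes differ in this difference was not tested.

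**Figure D4:**
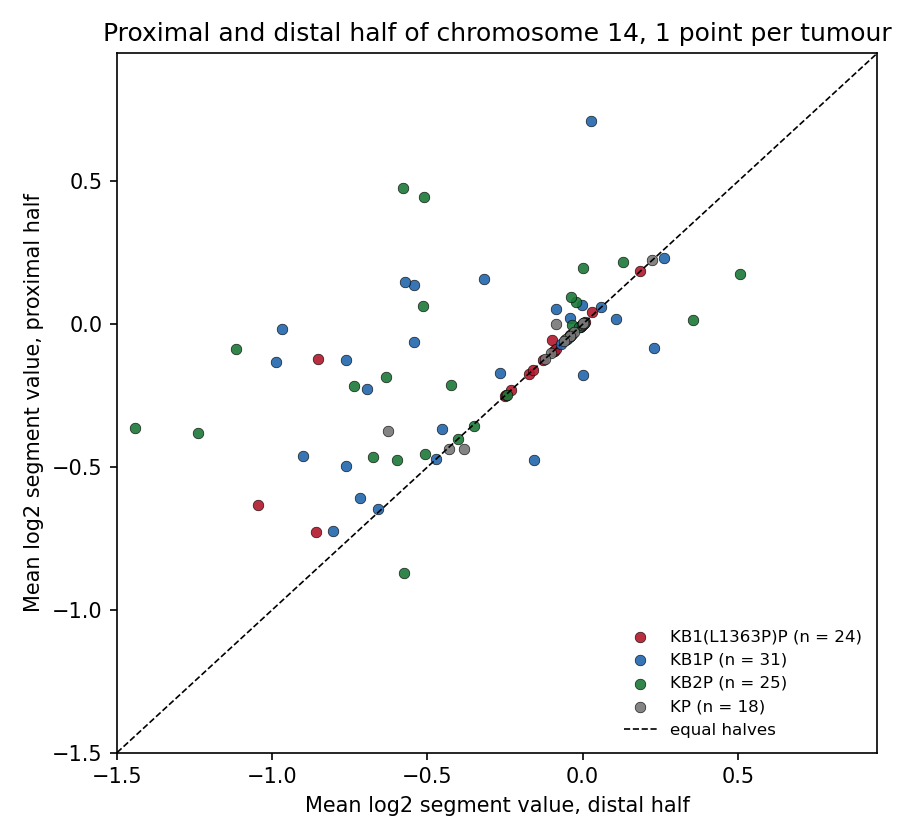
Mean segment value of the 882 proximal members (vertical axis, log2) against that of the 421 distal members (horizontal axis, log2), 1 point per tumour, by genotype. Points above the diagonal are lower distally: 19 KB1P and 18 KB2P tumours lie there, against 6 and 5 below it.

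Among tumours with loss, it was partial in 3 of 3 KB1(L1363P)P, 14 of 18 KB1P, 13 of 15 KB2P and 2 of 3 KP tumours. By Fisher's exact test (two-sided, 6 pairs), raw p-values were between 0.442 and 1 and all adjusted p-values were 1. With 3 tumours in each of 2 groups, a difference in kind was hardly detectable, and the test rests on the calls that chose the chromosome.

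Gains were called in KB1P and KB2P tumours, with and without loss. At least 1% of the members were gained in 11 KB1P and 15 KB2P tumours and in 0 KB1(L1363P)P and 0 KP tumours. Of these 26 tumours, 17 also had loss: 7 of 11 KB1P and 10 of 15 KB2P. That was close to the frequency of loss over all tumours of these genotypes, 18 of 31 KB1P and 15 of 25 KB2P. Whether gain and loss go together was not tested. The gained members lay proximal to the lost ones, by median position, in 14 of the 17, and distal in KB1P replicate 24 and KB2P replicates 14 and 21. Segment values of at least 1 were reached in 8 tumours, over runs that differed between them. The highest was 1.74, from 72.43 to 74.30 Mb in KB1P replicate 26, in the midst of that tumour's loss. Another reached 1.61 from Cryl1 onward, at 57.28 to 61.08 Mb, in the same tumour. KB1P replicate 8 reached 1.51 at 114.83 to 115.56 Mb, KB2P replicate 9 reached 1.56 at 55.15 to 55.83 Mb, up to Nfatc4, a calcineurin-regulated transcription factor, and KB1P replicate 27 reached 1.44 at 66.08 to 67.43 Mb, from Ephx2, an epoxide hydrolase gene, to Ebf2.

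Segment values of -1 or lower were reached in 10 tumours, and these deep values gathered in the distal stretch. The tumours were KB1(L1363P)P replicate 23, KB1P replicates 6, 7 and 29, and KB2P replicates 5, 10, 12, 16, 21 and 25. The most shared stretch, in 8 of them, ran from Scel to Gm4486 at 103.51 to 112.96 Mb with 54 members, Ednrb and Spry2 included. In 7 tumours the deep values covered 40 members from 98.99 to 103.51 Mb, among them Bora, Dis3, Klf5, Klf12, Lmo7 and Mycbp2. The stretch from Scel on overlaps the one most often lost in KB2P, which was found in the same tumours.

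A copy call of 0, which both copies missing in most cells would give, was made in 4 tumours, all KB2P. In KB2P replicate 16 it covered 5 members at 99.10 to 99.39 Mb. Klf5 had a segment value of -3.38 there and an unsegmented log2 ratio of -2.59, and Pibf1 had -2.54 and -2.40. The neighbours Dis3, Bora and Klf12 had -1.29, -1.29 and -1.33. In KB2P replicate 21 the call of 0 covered 53 members from Slain1 to Gm4486, at 103.65 to 112.96 Mb, at -2.37, with -0.30 on either side and -1.68 at Scel. Ednrb, Spry2 and Slitrk6, a neuronal membrane protein gene, lay inside it, as did Mir6390, whose sequence is given above. In KB2P replicates 10 and 12 the call of 0 covered the same 6 members, from Itgbl1 over Fgf14 to Olfr277-ps1 at 123.66 to 124.59 Mb, at -3.50 and -2.67. These calls fell at 3 separate places, of which 2 were seen in 1 tumour each. KB2P replicates 10 and 12, which shared the third place, also had a correlation of 0.933 across genes in the unsegmented ratios, and whether they are samples of 1 tumour was not tested. Without replicate 12, KB2P had loss in 14 of 24 tumours and a mean share lost of 33.9% ± 36.0 (SD, n = 24).

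**Figure D5:**
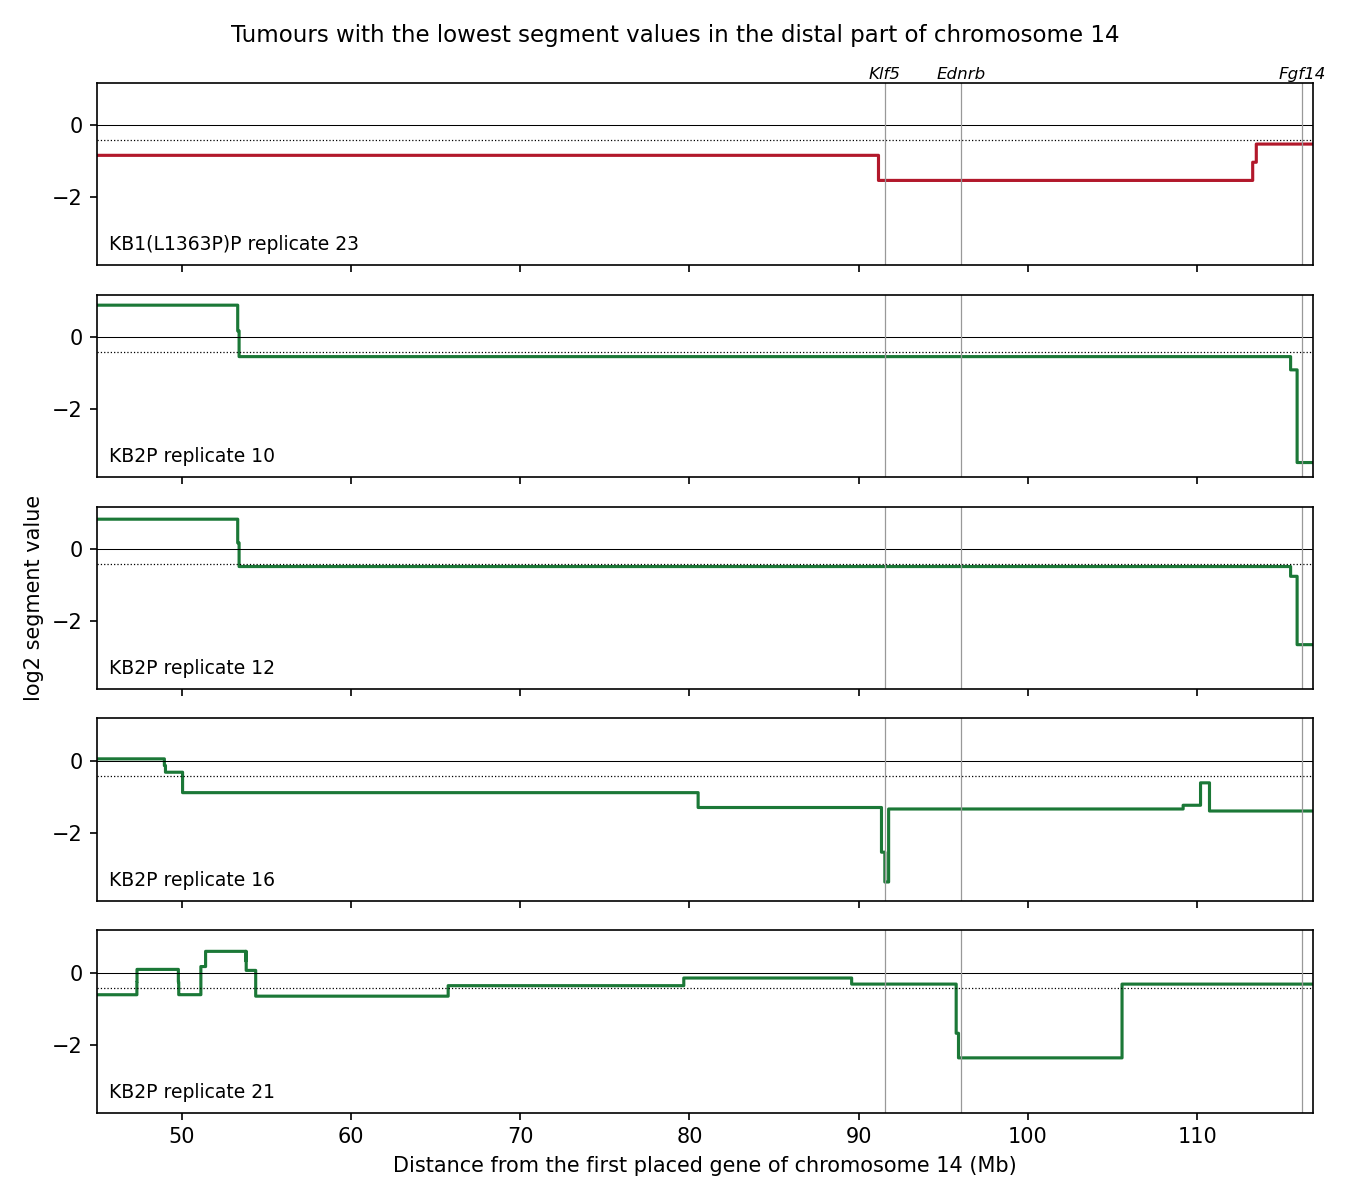
Segmented log2 ratio along chromosome 14, against distance in Mb from the first placed gene, in the 5 tumours with the lowest values: KB1(L1363P)P replicate 23 and KB2P replicates 10, 12, 16 and 21. The dotted line marks the limit of a loss call and grey lines mark Klf5, Ednrb and Fgf14. The minima of -3.38, -2.37 and -3.50 sit at 3 different places.

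Gene by gene, no member passed the test of a difference in segment value between the groups compared. The model (limma on all 43513 symbols, Benjamini-Hochberg adjustment) was read on the members only, and since the members were chosen for their loss, nothing is drawn from the counts. For KB1(L1363P)P minus KP, 0 of 1303 members had an adjusted p under 0.05, where 0% of all symbols were called. No member had an unadjusted p under 0.05 either, beside 15 of all 43513 symbols.

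For KB1(L1363P)P minus KB1P, limma called 0 members, where 13.5% of all symbols were called. An unadjusted p under 0.05 was reached by 60 of 1303 members, beside 12824 of all 43513 symbols. The median difference over the members was 0.06, beside -0.05 over all symbols. Dok2, for example, was higher by 0.21 in KB1(L1363P)P (SE 0.10, limma adjusted p = 0.139). Within library series 5289, with 20 KB1(L1363P)P and 10 KB1P tumours, 431 of 1303 members were higher in KB1(L1363P)P and 0 lower. There, 4247 of all 43513 symbols were called in either direction, and the median member difference was 0.27. Without the KB1PM titles and KB1P replicate 8, 128 members were higher and 0 lower, where 4834 of all 43513 symbols were called.

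For KB1(L1363P)P minus KB2P, limma called 0 members, where 12.8% of all symbols were called. An unadjusted p under 0.05 was reached by 165 of 1303 members, beside 11700 of all 43513 symbols. Ednrb was higher by 0.30 in KB1(L1363P)P (SE 0.12, limma adjusted p = 0.100). On the unsegmented log2 ratios, 12 of 1303 members were higher and 0 lower, where 5282 of all 43513 symbols were called. Without KB2P replicate 12, limma on the segment values again called 0 members, where 5309 of all 43513 symbols were called.

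Among adenocarcinomas, limma called 0 members for KB1P minus KP (1.03% of all symbols called), for KB2P minus KP (0.0529%) and for KB1P minus KB2P (0.138%). No member had an unadjusted p under 0.05 in these 3 comparisons, beside 3882, 2897 and 4690 of all 43513 symbols. The median member differences were -0.02, 0.01 and 0.00, beside 0.06, 0.03 and 0.03 over all symbols. The KP group held 6 adenocarcinomas, and the standard error of Dok2, at 0.19 for both comparisons with KP, was close to the size of its difference of -0.22 in KB1P and -0.20 in KB2P.

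For sarcomatoid minus carcinosarcoma in KB1(L1363P)P, limma called 0 members, where 5.21% of all symbols were called, and the lowest adjusted p among them was 0.360. None of the members had an unadjusted p under 0.05, beside 5994 of all 43513 symbols. For sarcomatoid minus adenocarcinoma in KP, limma called 0 members, where 2.99% of all symbols were called. In that comparison 202 of 1303 members had an unadjusted p under 0.05, beside 3985 of all 43513 symbols. The median member differences were 0.11 and 0.17, beside 0.03 and 0.04 over all symbols.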

How the data were processed

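The data are shallow whole-genome libraries of 98 tumours and 3 spleens. The labels' protocols describe BWA alignment, counting in 20 kb bins, a smooth fit that corrects the bin counts for GC, and a linear model for mappability. The submitters' processing notes name cutadapt 2.5, BWA 0.7.17, SAMtools 1.10, Picard and build mm10. How segments were called, what the ratios were taken against and how bins were assigned to genes is not given in the sources used here. The authors deposited, for 43513 gene symbols, log2 ratios, segmented log2 ratios (log2) and a copy call, a whole-number score in which 2 is neutral. The files hold no read counts, so the depth is unknown and no counting interval is given. In the tumours, neighbouring members differed by a median of 0.0508 in the unsegmented log2 ratio (range over tumours 0.0387 to 0.0932). In the 3 spleens the median difference was lower, at 0.0266, 0.0291 and 0.0205.

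Symbols were placed by the RefSeq annotation of GRCm38, 32661 directly and 30 by an older symbol, and 10822 had no position. Loss was a call below 2. Tumours with under 1% of the members lost were counted as without loss and those with at least 90% as whole losses. Deep and high values were segment values of -1 or lower and of 1 or higher. Segment values of all symbols were fitted with limma 3.58.1 in R 4.3.3 (lmFit, contrasts.fit, eBayes) at an adjusted p of 0.05. The sign-flip permutation test (100000 resamples, exact with under 10 nonzero tumours) was written with NumPy 2.4.6. Fisher's exact test was run with SciPy 1.17.1, and the figures were drawn with matplotlib 3.10.9. The tests were checked on simulated data. Groups came from the genotype and histology labels, and replicate numbers follow accession order and only name a tumour.

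The members, the lists and the tests were chosen with earlier results of these data known. Genes were named by rule: from each list up to 5 members lost most and the 1 lost least, the first and last members of the most and least often lost, deep and high runs, and landmarks every 20 Mb. Pibf1, Slain1, Itgbl1, Fgf14, Adam28, the miRNAs and symbols starting with Gm fell outside the rule and were picked with their values in view. Alternatives were another loss limit, other limits for whole loss, unsegmented ratios, centring, length weighting, 1 tumour for each sample number, single library series, leaving out doubtful or near-identical tumours, and sample number as a random block (duplicateCorrelation). The block and the fit without KB1P replicate 8 alone were chosen after the data were seen. Sample numbers were joined within KB1(L1363P)P only.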

Additional observations from a re-analysis of the deposited data

Results flagged for a closer look

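Of 9 sets of a group and a measure with 4 to 10 tumours, 3 held a tumour whose gap to the nearest other tumour was large against the range of its group, by Dixon's criterion. The share lost and the proximal minus distal difference were 0 in all 10 sarcomatoid KP tumours, so those sets could not be flagged. Chance flags about 1 in 20 groups of normally distributed values. Many tumours in the other sets of these 2 measures also sat at 0, so that rate need not hold here. KB1(L1363P)P replicate 23 had a mean segment value of -0.7664 on chromosome 14, against -0.3594 for the next of the 9 KB1(L1363P)P carcinosarcomas. It was 1 of the 3 tumours of its genotype with loss and came from library series 5490. KP replicate 4 had a proximal minus distal difference of 0.2547, against 0.0856 for the next of the 6 KP adenocarcinomas. KP replicate 12 had a mean segment value of 0.2245, against 0.0059 for the next of the 10 sarcomatoid KP tumours, and it was the only one of them to lie that far above 0, with no step along the chromosome.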

How the results depend on the processing

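Under the other settings, 218 repeated results stayed on the same side of their threshold, or within 1 SD or 1.5 times of the main value, 23 moved, 2 came past their threshold and 4 turned direction. The cause was not tested. Counts of called members became 128 without KB1PM titles and KB1P replicate 8 and 431 within series 5289 (KB1(L1363P)P minus KB1P), and 12 on unsegmented ratios (KB1(L1363P)P minus KB2P), all higher. In these 3 settings, 4834, 4247 and 5282 of all 43513 symbols were called, in either direction. At a loss limit of -0.2, which also takes shallow uniform shifts, the mean share lost in sarcomatoid KB1(L1363P)P tumours was 16.7%. Whole losses then numbered 4 in KB1(L1363P)P, 6 in KB2P, 2 in KP, 2 in sarcomatoid tumours and 3 in carcinosarcomas, and partial losses 1 in KP and 1 in carcinosarcomas. The most often lost run of KB1(L1363P)P then counted 6 tumours, and it counted 1 among adenocarcinomas only. With whole loss set at 80%, whole losses numbered 1 in KB1(L1363P)P, 2 in KP and 1 in carcinosarcomas, with 1 partial loss in KP. At 95% KB2P had 0 whole losses, and with members weighted by length it had 1. Without series 5490, partial losses numbered 1 in KB1(L1363P)P, 0 in KP and 0 in carcinosarcomas, and KP had 0 whole losses. The proximal minus distal difference on unsegmented ratios was 0.0769 in KB1(L1363P)P (permutation, adjusted p = 8e-05) and 0.0277 in KP (permutation, adjusted p = 0.0119). In tumours without a step this unsegmented difference averaged 0.0246 in KB1(L1363P)P (17 of 19 above 0), 0.0101 in KP (11 of 14 above 0) and, over all genotypes, 0.0144 ± 0.0222 (SD, n = 41), beside 0.0045 ± 0.0152 in spleens (SD, n = 3). The share of partial losses turned to -13.3 points for KB1(L1363P)P minus KB2P at the 80% limit. At -0.2 it turned to -44.4 points for KB1(L1363P)P minus KB1P, -33.3 for KB1(L1363P)P minus KB2P and 11.1 for KB1P minus KB2P. Leaving out 1 tumour at a time, the mean share lost ranged from 0 to 44.9% in the 3 KB1(L1363P)P adenocarcinomas and from 0 to 82.4% in the 2 KP carcinosarcomas. Replicate numbers follow accession order and pair no samples, and no paired analysis was run. Sample numbers were joined only within KB1(L1363P)P, where titles with a suffix link 6 tumours. Numbers such as 1, 5 and 12 also recur among KB1P titles, and those tumours were not joined. With the joined sample number as a random block (correlation 0.232 over genotypes and 0.0966 over histologies), limma again called 0 members in the 4 comparisons that hold those 6 tumours.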
